A study of Homo sapiens with 6 samples.

Results

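Glycolysis and the genes controlled by hypoxia-inducible factor (HIF) were followed here through 36 genes: glucose transporters, the enzymes of each glycolytic step with their isozymes, lactate transporters, and genes of the oxygen-sensing pathway. The members were chosen by gene symbol, with Ensembl identifiers matched to symbols without their version, and 35 of the 36 were found among the 33644 genes of the deposited table. EGLN1 was not analysed here. The labels describe RNA-seq of HEK293T, a line of human embryonic kidney origin that expresses SV40 large T antigen, as 3 wild-type samples and 3 samples of an alt-LAMA3 KO line made from it. Both groups were grown in the same medium with serum, had no treatment and were taken at day 0. The labels do not say whether the knockout line is a single clone or whether replicates were separate cultures, so the p-values may cover technical spread only.

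The table gives 1 comparison of 2 groups that its header does not name, and no value for any single sample. A positive log2 fold change means a higher level in a group called here the numerator group, and the other is called the denominator group. Neither is taken to be the knockout. The labelled cell type could not be matched to its markers: 0 of 10 markers of HEK293-derived lines reached a mean normalized count of 72.0, with NEFL, NEFM, SALL1 and GAL listed at 0, against 9 of 11 T lymphocyte markers. The highest HEK293 marker was CKB at 60.6, and the T lymphocyte markers that fell short were CD5 at 1.87 and CD4 at 1.83. Of the 9 T lymphocyte markers tested, 7 were lower in the numerator group and 0 higher, beside 14.8% and 14.7% of all genes tested. The part of this marker difference in the results below was not tested. Very low means shared by 149 to 390 genes took 9 values, of which 3 went with positive, 3 with negative and 3 with zero fold changes, so the mean normalized count of a gene may include libraries outside both groups. Whether the table was made from the labelled samples could therefore not be settled, and every value below describes the 2 groups of the table, which may be other samples. In bulk RNA, fewer cells of a type and less RNA per cell cannot be told apart.

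Glycolysis turns glucose into pyruvate in the cytosol, yielding ATP and NADH, and lactate dehydrogenase restores NAD+ by reducing pyruvate to lactate, which leaves the cell through monocarboxylate transporters. Dividing cells, among them activated lymphocytes, use the pathway heavily even where oxygen is present. HIF is a transcription factor whose alpha subunit is hydroxylated by oxygen-dependent EGLN enzymes and then degraded through VHL. When hydroxylation fails, HIF binds the core letters ACGTG or GCGTG near genes of glucose uptake, glycolysis, mitophagy, collagen hydroxylation and blood vessel growth.

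Most of the pathway was higher in the numerator group. Of the 36 listed genes, 33 had an adjusted p, and 22 of these were higher and 2 lower at an adjusted p under 0.05 in the authors' deposited table. Among all 13957 genes tested, 14.7% were higher and 14.8% lower, which makes 29.5% in either direction. The median log2 fold change was 0.52 over the 33 members and 0.00 over all genes tested. In glycolysis with its transporters and PDK1, 18 of 24 genes were higher and 1 lower, with a median of 0.54. Among the 9 tested HIF pathway genes, 4 were higher and 1 lower, with a median of 0.10. Calls that held under each of the 7 alternative settings numbered 10: SLC2A1, ALDOC, PKM, LDHA, PDK1, BNIP3, BNIP3L, VEGFA and P4HA1 were higher, and EGLN3 was lower. Tested against a change of 1.5-fold, 11 members were higher and 1 lower, where 2.36% and 2.31% of all genes were (4.68% together). With errors widened to the robust spread of all statistics, 14 of the 33 members passed, beside 8.57% of all genes. That spread may also hold differences between the groups, so it does not measure how wide the errors should be. At an adjusted p of 0.01, 21 of 33 members passed beside 22.6%, and without the filter on low means 22 of 34 beside 18.0%. At or above a mean of 72.0 it was 25 of 30 beside 45.7%, and among protein-coding genes 24 of 33 beside 32.4%. Centring the fold changes on the median of all genes left 24 members and 29.5% of all genes. Since that median was 0.00, this setting among the 7 repeats the deposited calls and adds no check of them.

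**Figure D1:**
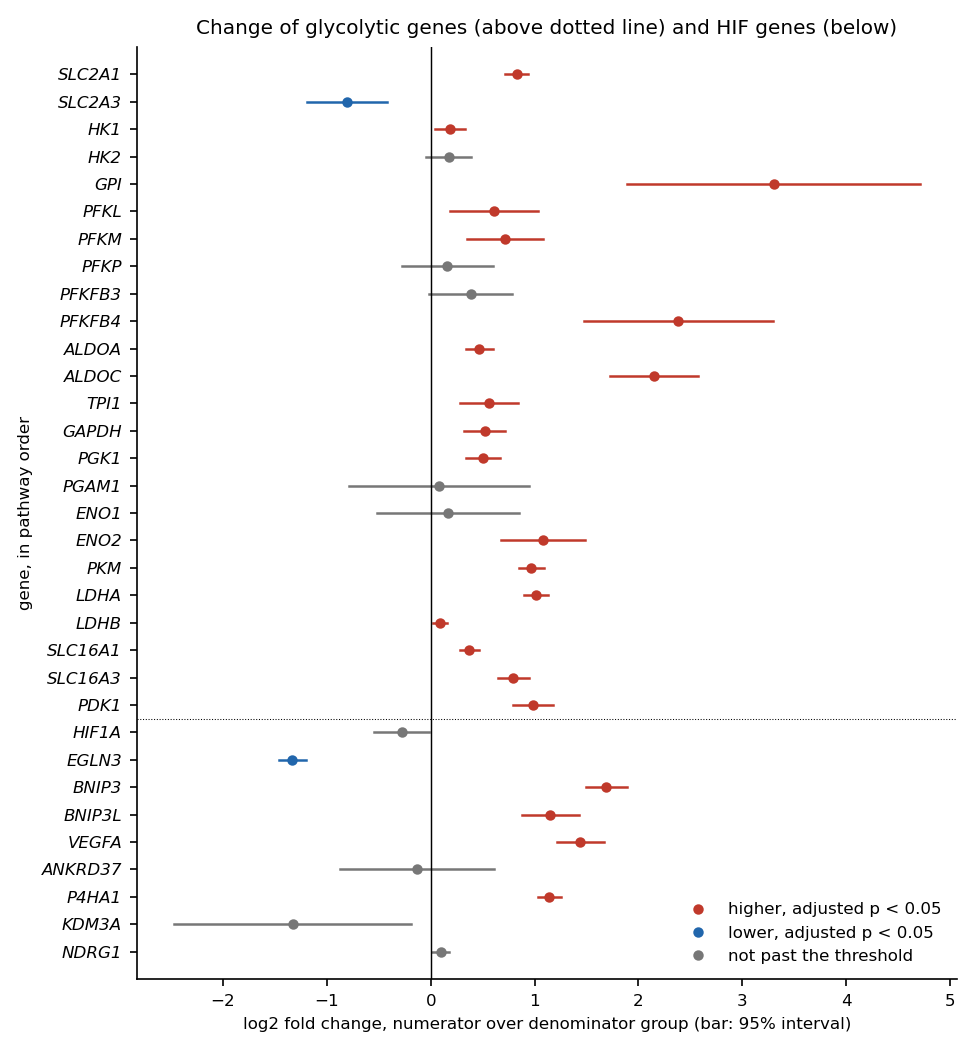
Log2 fold change (x axis, numerator over denominator group) of the 33 tested genes in pathway order (y axis), with points for the deposited estimate and bars for its 95% interval; red and blue mark genes higher and lower at an adjusted p under 0.05. The points of 28 genes lie above 0, from GPI at 3.30 down to LDHB at 0.09 among those that passed, and SLC2A3 and EGLN3 lie below 0.

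The sequences just before the RefSeq start of 5 members that differ in their response are shown to set the HIF core letters beside the fold changes. LDHA had the highest level of the members, ALDOC rose most among those called under every setting, P4HA1 had the largest test statistic, BNIP3 changed most in the oxygen-sensing part, and EGLN3 fell. Each is the 250 bases before the RefSeq gene start (GRCh38.p14), written 5′ to 3′ on the gene's strand, with ACGTG on either strand in capitals, so that its complement appears as CACGT and a palindrome as CACGTG. GENCODE 29 also lists transcripts that start further upstream, so each window overlaps the GENCODE span of its gene, wholly for ALDOC and EGLN3 and in part for LDHA, P4HA1 and BNIP3. The windows are chr11:18394313-18394562 on the plus strand for LDHA, chr17:28576896-28577145 on the minus strand for ALDOC, chr10:73096867-73097116 on the minus strand for P4HA1, chr10:131981924-131982173 on the minus strand for BNIP3 and chr14:33951075-33951324 on the minus strand for EGLN3.
LDHA: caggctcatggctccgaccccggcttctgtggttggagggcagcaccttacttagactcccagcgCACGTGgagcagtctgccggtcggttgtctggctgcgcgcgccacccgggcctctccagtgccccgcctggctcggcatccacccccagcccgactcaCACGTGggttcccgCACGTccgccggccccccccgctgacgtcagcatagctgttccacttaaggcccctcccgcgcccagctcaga
ALDOC: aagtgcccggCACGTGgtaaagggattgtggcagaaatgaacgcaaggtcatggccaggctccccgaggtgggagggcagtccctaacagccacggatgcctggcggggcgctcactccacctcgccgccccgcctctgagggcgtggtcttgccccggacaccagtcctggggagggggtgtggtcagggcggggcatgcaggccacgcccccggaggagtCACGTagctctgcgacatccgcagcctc
P4HA1: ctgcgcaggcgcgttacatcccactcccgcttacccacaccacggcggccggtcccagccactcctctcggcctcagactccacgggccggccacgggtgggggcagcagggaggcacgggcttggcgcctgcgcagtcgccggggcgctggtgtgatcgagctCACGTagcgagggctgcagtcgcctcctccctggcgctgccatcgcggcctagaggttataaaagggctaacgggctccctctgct
BNIP3: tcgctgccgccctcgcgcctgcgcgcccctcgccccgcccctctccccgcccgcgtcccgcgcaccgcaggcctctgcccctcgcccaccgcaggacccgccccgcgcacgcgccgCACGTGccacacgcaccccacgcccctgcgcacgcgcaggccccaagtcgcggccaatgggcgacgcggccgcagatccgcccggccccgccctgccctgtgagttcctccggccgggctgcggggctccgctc
EGLN3: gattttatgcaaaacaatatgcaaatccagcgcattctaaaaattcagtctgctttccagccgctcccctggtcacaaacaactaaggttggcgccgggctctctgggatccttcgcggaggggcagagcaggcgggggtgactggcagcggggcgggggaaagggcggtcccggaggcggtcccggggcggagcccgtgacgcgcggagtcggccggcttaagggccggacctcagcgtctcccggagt

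The LDHA window held 3 separate ACGTG sites, starting 185, 87 and 73 bases before the gene start, and 2 of them were the palindrome CACGTG. In ALDOC there were 2 sites, 240 and 28 bases before the start, while P4HA1 had 1 at 86 bases and BNIP3 had 1 at 134 bases. No ACGTG was found in the EGLN3 window, which says nothing of sites elsewhere. GCGTG on either strand, left in small letters, was found 4 times in the BNIP3 window and 2 times in that of ALDOC. The LDHA, P4HA1 and EGLN3 windows held it 0 times. SLC2A1, PKM and PDK1, also higher under every setting but not shown, had neither ACGTG nor GCGTG in their windows, unlike the higher members shown. Windows were at hand for 31 of the 36 members, and 13 of these (41.9%) held ACGTG on either strand, beside 23.0% of the windows of 9926 genes with an adjusted p and 18.5% of all 35116 windows. Of the 19 higher members with a window, 9 (47.4%) held it, as did 2 of the 8 (25.0%) that did not pass. These 2, HK2 and ANKRD37, each held 2 or more. Windows with 2 or more thus made up 25.0% of the 8 that did not pass and 15.8% of the 19 higher. The other core, GCGTG, was in 35.5% of members' windows and 44.8% of those of tested genes. It ran the other way, being in 5 of the 19 higher members (26.3%) and 5 of the 8 that did not pass (62.5%), and neither difference was tested. Median GC content was 69.6% for members' windows and 64.4% for tested genes, and its part in these shares was not tested. CACGTG, which is also the E-box read by helix-loop-helix factors and overlaps ACGTG, was in 16.1% of members' windows and 8.86% of those of tested genes.

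Glucose uptake differed between its transporters. SLC2A1, the basal glucose transporter GLUT1, had a mean normalized count of 3481 and a log2 fold change of 0.83 with SE 0.06 (adjusted p = 4.92e-46, from the authors' deposited table), a 1.77-fold higher level with a 95% interval of 1.64 to 1.92. SLC2A3, the high-affinity transporter GLUT3, went the other way in the authors' deposited table, with a mean of 400.0 and a log2 fold change of -0.80 with SE 0.20 (adjusted p = 0.000285). With the errors widened as above its call was lost (adjusted p = 0.288). Per kilobase of merged exons, SLC2A1 stood at 737 and SLC2A3 at 65.0 mean normalized counts over all libraries of the table, and SLC2A1 was the one that rose. SLC2A14, a close paralog that can share reads with SLC2A3, had a mean of 41.4 and a log2 fold change of -0.30 (SE 0.35) in the authors' deposited table.

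Hexokinases trap glucose as glucose 6-phosphate, and the 95% intervals of both measured forms ended at or under 1.31-fold. HK1, the broadly expressed form, had a mean normalized count of 7459 and a log2 fold change of 0.19 with SE 0.07 (adjusted p = 0.0374, from the authors' deposited table). That call was lost at an adjusted p of 0.01 and without the filter on low means (adjusted p = 0.0565). HK2, the form that is inducible in many tissues and a known HIF target, did not pass in the authors' deposited table, with a mean of 2742 and a log2 fold change of 0.17 with SE 0.11 (adjusted p = 0.262). The 95% interval for HK2 ran from 0.970-fold to 1.31-fold. Per kilobase HK1 was 2.62 times HK2.

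GPI, which converts glucose 6-phosphate to fructose 6-phosphate, had the largest estimate of all members and one of the least certain. Its mean normalized count was 200.7 and its log2 fold change 3.30 with SE 0.72 (adjusted p = 3.38e-05, from the authors' deposited table), or 9.85-fold with a 95% interval of 3.71 to 26.1. The error was 3.53 times the median error of the 500 tested genes nearest in mean, and the call was lost with widened errors (adjusted p = 0.184). Per kilobase of merged exons GPI stood at 18.8, and the 3 phosphofructokinase 1 subunits of the next step at 31.2 to 82.2. With the longest transcript as length GPI stood at 46.2, close to PFKL, the lowest of the 3, at 46.3. Values per sample are needed to see whether all libraries of a group share the level of GPI.

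Phosphofructokinase 1 is the committed step of glycolysis and is built from liver, muscle and platelet type subunits. PFKM, the muscle type subunit, had a mean normalized count of 602 and a log2 fold change of 0.72 with SE 0.19 (adjusted p = 0.000730, from the authors' deposited table). For PFKL, the liver type, the authors' deposited table gave a mean of 278 and a log2 fold change of 0.61 with SE 0.22 (adjusted p = 0.0202). PFKP, the platelet type, did not pass in the authors' deposited table, with a mean of 254 and a log2 fold change of 0.16 with SE 0.22 (adjusted p = 0.672). Per kilobase the 3 subunits stood at 31.2 to 82.2 mean normalized counts. The 95% interval of PFKP, 0.827-fold to 1.51-fold, reached into those of the others. With widened errors PFKM (adjusted p = 0.347) and PFKL (adjusted p = 0.666) lost their calls.

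The bifunctional enzymes that make and break fructose 2,6-bisphosphate, the activator of phosphofructokinase 1, showed a larger change in the scarcer form. PFKFB4 had a mean normalized count of 89.7 and a log2 fold change of 2.38 with SE 0.46 (adjusted p = 2.46e-06, from the authors' deposited table), a 5.22-fold higher level with a 95% interval of 2.78 to 9.79. Its call was lost with widened errors (adjusted p = 0.105). PFKFB3 had a mean of 880 and a log2 fold change of 0.39 with SE 0.20 (adjusted p = 0.150, from the authors' deposited table) and did not pass. The error of PFKFB3 was 2.04 times that of genes of like mean. Per kilobase PFKFB3 was 9.80 times PFKFB4 over the libraries of the table.

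Aldolase cleaves fructose 1,6-bisphosphate, and its 2 measured isozymes rose to different extents. ALDOC, the brain type aldolase (chr17:28573115-28577264, minus strand, GRCh38, GENCODE 29), had a mean normalized count of 488 and a log2 fold change of 2.15 with SE 0.22 (adjusted p = 2.13e-21, from the authors' deposited table). That is a 4.43-fold higher level with a 95% interval of 3.30 to 5.96. ALDOA, the muscle type that most cells use, had a mean of 8300.4 and a log2 fold change of 0.47 with SE 0.07 (adjusted p = 1.05e-11, from the authors' deposited table), or 1.38-fold. Over all libraries of the table ALDOA was the main form per kilobase, at 12.7 times ALDOC, and the ratio of ALDOC to ALDOA was 3.21-fold higher in the numerator group. No test of such ratios was made, since the table does not give how the errors of genes covary.

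The middle of the pathway moved by like amounts. TPI1, which interconverts the triose phosphates, had a log2 fold change of 0.56 (SE 0.14), GAPDH, which oxidises glyceraldehyde 3-phosphate, 0.52 (SE 0.10), and PGK1, which makes the first ATP, 0.51 (SE 0.08) in the authors' deposited table. These are 1.47-fold, 1.43-fold and 1.42-fold higher levels. All are under 1.5-fold, so these genes could not pass the test against a 1.5-fold change. TPI1 (adjusted p = 0.325) and GAPDH (adjusted p = 0.109) also lost their calls with widened errors. GAPDH, widely used as a loading reference, thus differed between the groups by its own test (adjusted p = 2.90e-06 in the authors' deposited table).

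Of the next steps, PGAM1 and ENO1 could hardly be measured. PGAM1, a phosphoglycerate mutase, had a mean normalized count of 23.4 and ENO1, the common enolase, 41.3 in the authors' deposited table, both under the level of 72.0 that equals 5 per 1000000 of all normalized counts. Neither passed in the authors' deposited table, with log2 fold changes of 0.08 (SE 0.44, adjusted p = 0.930) and 0.17 (SE 0.35, adjusted p = 0.795). Their 95% intervals, 0.580-fold to 1.93-fold and 0.699-fold to 1.81-fold, hold the changes of 1.42-fold to 1.47-fold of the steps before them. ENO2, the neuronal type enolase and a HIF target, passed with a mean of 556 and a log2 fold change of 1.08 with SE 0.21 (adjusted p = 1.82e-06, from the authors' deposited table). It was 2.11-fold higher, although the call was lost against a 1.5-fold change (adjusted p = 0.265) and with widened errors (adjusted p = 0.0986). ENO3, an enolase outside the members, had a mean of 259 and a log2 fold change of 0.21 with SE 0.17. It did not pass (adjusted p = 0.430, from the authors' deposited table). Per kilobase ENO2 stood at 130, ENO3 at 60.3 and ENO1 at 7.83.

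Several of these genes have processed pseudogenes, copies of their mRNA elsewhere in the genome that can share reads with them. The table lists 144 pseudogenes named for 16 of the 36 genes, 62 of them for GAPDH, 36 for BNIP3 and 13 for PGAM1. Summed over its pseudogenes, PGAM1 had 20.1 mean normalized counts beside 23.4 for the gene itself, ENO1 had 7.20 beside 41.3, TPI1 36.1 beside 404 and GAPDH 45.1 beside 2396. How reads that match several places were counted is not given in the sources used here, so the levels of these genes are uncertain, and the part of this in their low values was not tested. For LDHA the pseudogene LDHAP4 reached a mean of 753 and a log2 fold change of 1.10 (SE 0.09) in the authors' deposited table. LDHAP3 (0.98, SE 0.26) and LDHAP7 (0.89, SE 0.27) also passed in the authors' deposited table, with changes near that of LDHA itself.

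**Figure D2:**
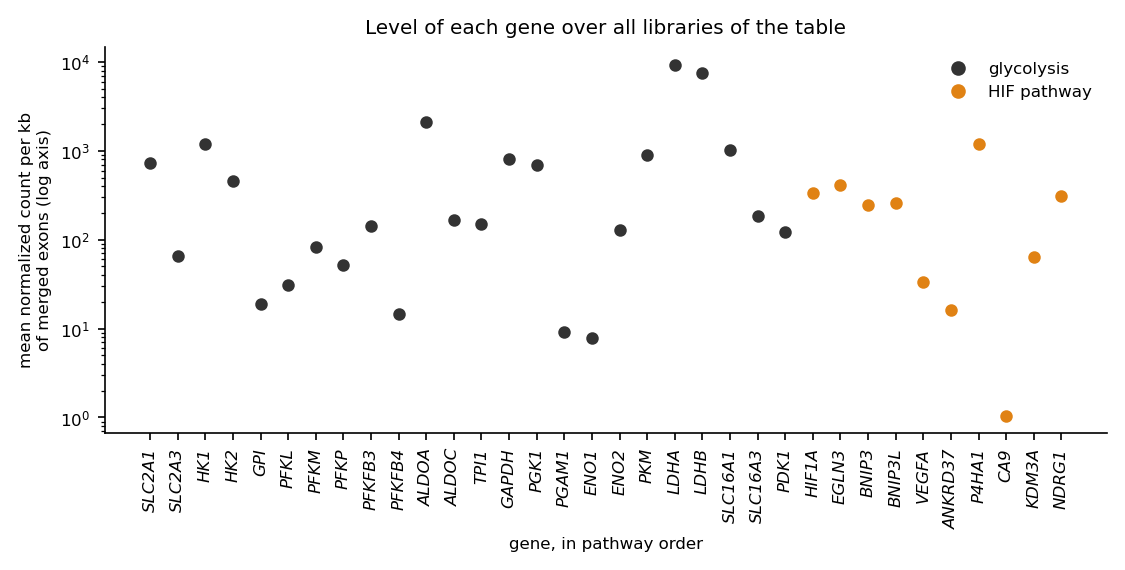
Mean normalized count per kilobase of merged exons (y axis, log scale) of the 34 members above 0, in pathway order (x axis); each point is 1 gene over all libraries of the table, black for glycolysis and orange for the HIF pathway. LDHA and LDHB lie highest at 9345 and 7578, ENO1 and PGAM1 lowest in glycolysis at 7.83 and 9.12, and CA9 lowest of all at 1.04.

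The end of the pathway was abundant and clearly higher. PKM, the pyruvate kinase of proliferating and muscle cells, had a mean normalized count of 7683 and a log2 fold change of 0.97 with SE 0.06 (adjusted p = 1.92e-52, from the authors' deposited table), or 1.96-fold with a 95% interval of 1.80 to 2.13. LDHA (chr11:18394388-18408425, plus strand, GRCh38, GENCODE 29), the subunit that favours lactate formation, had a mean of 58030 and a log2 fold change of 1.01 with SE 0.06 (adjusted p = 1.06e-68, from the authors' deposited table). Its 2.02-fold rise had a 95% interval of 1.87 to 2.18, and by mean normalized count it ranked 13 among all 33644 genes. LDHB, the subunit of tetramers that favour lactate use, had a mean of 22605 and a log2 fold change of 0.09 with SE 0.03 (adjusted p = 0.0363, from the authors' deposited table). The change was 1.06-fold, and the call was lost without the filter on low means (adjusted p = 0.0549). Per kilobase LDHA was 1.23 times LDHB, and the ratio of LDHA to LDHB was 1.90-fold higher in the numerator group, a difference that was not tested.

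Both lactate transporters and PDK1 rose as well. SLC16A1, the monocarboxylate transporter MCT1, had a mean normalized count of 5443 and a log2 fold change of 0.37 with SE 0.04 (adjusted p = 2.56e-15, from the authors' deposited table). SLC16A3, the lactate exporter MCT4 and a HIF target, had a mean of 1643 and a log2 fold change of 0.80 with SE 0.08 (adjusted p = 1.33e-23, from the authors' deposited table), or 1.74-fold. Per kilobase SLC16A1 was 5.61 times SLC16A3. PDK1, a kinase that inhibits pyruvate dehydrogenase and so keeps pyruvate from the citric acid cycle, had a mean of 1797 and a log2 fold change of 0.98 with SE 0.10 (adjusted p = 2.60e-22, from the authors' deposited table). That is 1.98-fold, with a 95% interval of 1.73 to 2.26.

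**Figure D3:**
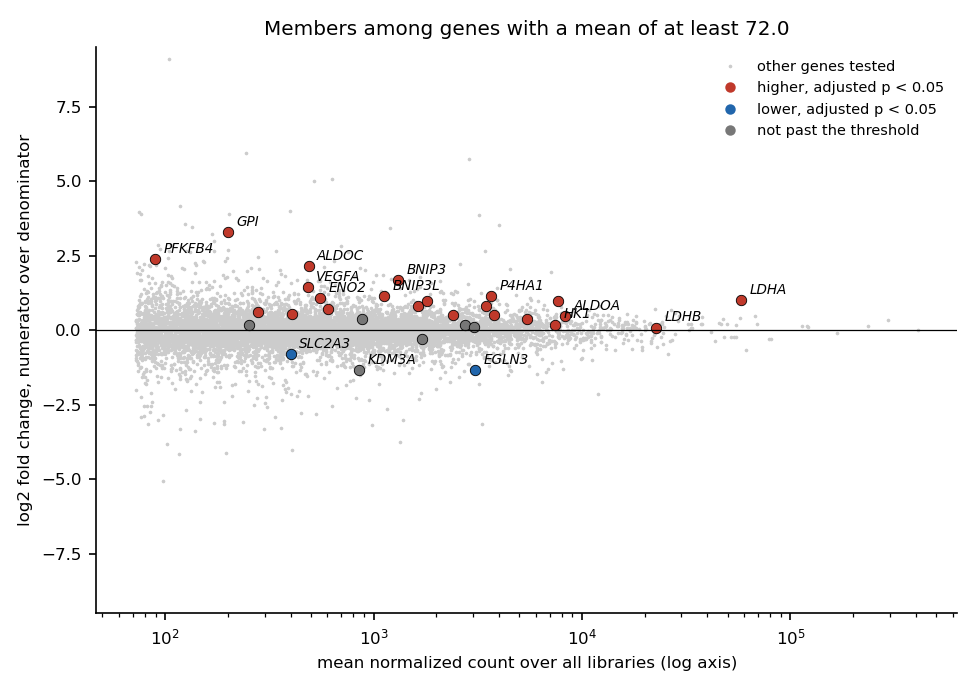
Log2 fold change (y axis, numerator over denominator group) against mean normalized count (x axis, log scale) for tested genes at or above a mean of 72.0; grey dots are genes outside the list and large points the members, coloured by call. LDHA lies farthest right of the members, at a mean of 58030 and a log2 fold change of 1.01, and LDHB lies near the zero line at 0.09.

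In the oxygen-sensing part, neither HIF1A nor EGLN3 was higher. HIF1A, the alpha subunit that binds DNA, had a mean normalized count of 1717 and a log2 fold change of -0.28 with SE 0.14 (adjusted p = 0.110, from the authors' deposited table), and did not pass. HIF activity is set largely at the protein, which RNA-seq does not measure. EGLN3, a prolyl hydroxylase that marks HIF alpha for degradation and is itself a HIF target, was lower, with a mean of 3061 and a log2 fold change of -1.33 with SE 0.07 (adjusted p = 9.26e-84, from the authors' deposited table). The level was 2.51-fold lower, the gene (chr14:33924231-34462774, minus strand, GRCh38, GENCODE 29) ranking 50 among all tested genes by the size of its statistic. It thus went the opposite way to BNIP3, BNIP3L, P4HA1 and VEGFA.

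Both mitophagy receptors were higher. BNIP3 (chr10:131966455-131982013, minus strand, GRCh38, GENCODE 29) had a mean normalized count of 1316 and a log2 fold change of 1.69 with SE 0.10 (adjusted p = 5.24e-60, from the authors' deposited table), or 3.23-fold with a 95% interval of 2.81 to 3.71. BNIP3L, its homologue known as NIX, had a mean of 1120 and a log2 fold change of 1.15 with SE 0.14 (adjusted p = 4.64e-15, from the authors' deposited table), or 2.22-fold. Levels per kilobase were 247 for BNIP3 and 260 for BNIP3L, an order that turned when the longest transcript was used as the length.

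P4HA1, a subunit of the collagen prolyl 4-hydroxylase, had the largest statistic of all members, at rank 42 of the genes tested. Its mean normalized count was 3672 and its log2 fold change 1.14 with SE 0.06 (adjusted p = 3.16e-90, from the authors' deposited table), or 2.21-fold with a 95% interval of 2.05 to 2.38 (chr10:73007217-73096974, minus strand, GRCh38, GENCODE 29). VEGFA, the growth factor of blood vessels, had a mean of 483 and a log2 fold change of 1.44 with SE 0.12 (adjusted p = 4.93e-33, from the authors' deposited table), or 2.71-fold. ADM, the vasodilator peptide adrenomedullin, was listed at 0. CA9, a carbonic anhydrase and a common marker of hypoxia, had a mean of 1.74 and no adjusted p in the authors' deposited table.

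NDRG1, ANKRD37 and KDM3A, further HIF targets among the members, were not past the threshold. NDRG1, a stress-responsive gene, had a mean normalized count of 3017 and a log2 fold change of 0.10 with SE 0.04 (adjusted p = 0.0768, from the authors' deposited table), with a 95% interval of 1.01-fold to 1.13-fold, far from the changes of BNIP3 or VEGFA. ANKRD37, an ankyrin repeat protein, had a mean of 41.8 and a log2 fold change of -0.14 with SE 0.38 (adjusted p = 0.853, from the authors' deposited table). KDM3A, a histone H3 lysine demethylase that HIF induces, had a log2 fold change of -1.33 at a mean of 852 in the authors' deposited table, the same size as EGLN3, but its SE was 0.58 (adjusted p = 0.0703). That error was 5.78 times the median of genes of like mean, the highest such ratio of the members, and the 95% interval ran from 0.180-fold to 0.878-fold. With the test kept to genes at or above a mean of 72.0, KDM3A came past the threshold (adjusted p = 0.0493).

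**Figure D4:**
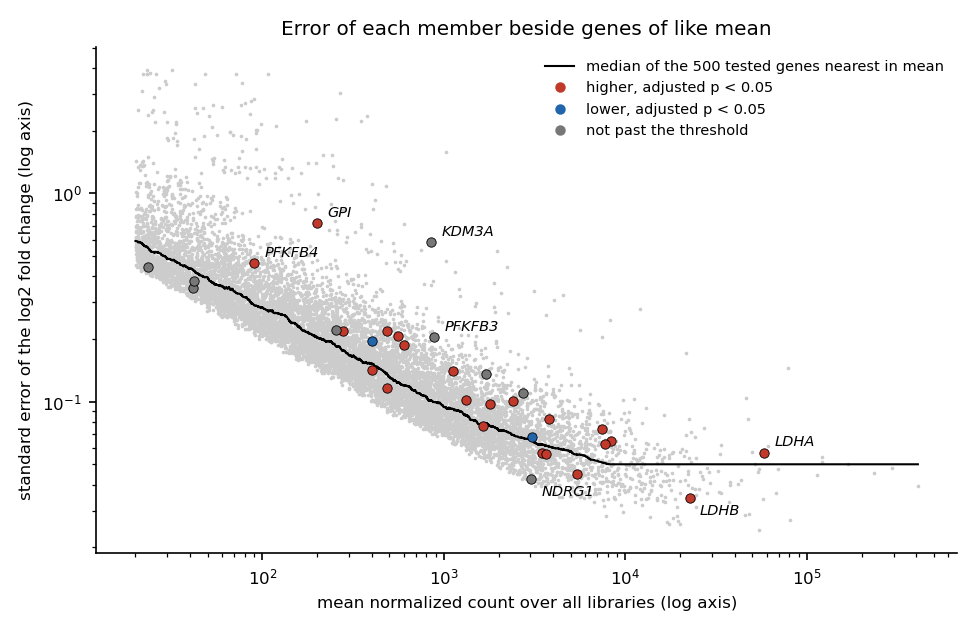
Standard error of the log2 fold change (y axis, log scale) against mean normalized count (x axis, log scale) for tested genes at or above a mean of 20; the black line is the median of the 500 tested genes nearest in mean, and large points are the members, coloured by call. KDM3A at 5.78 times, GPI at 3.53 times and PFKFB3 at 2.04 times the line are the members more than 2 times above it, and NDRG1 lies lowest against it at 0.648 times.

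Where a step had several isozymes, the change fell on the scarcer form in some cases and on the abundant form in others. PFKFB4, ALDOC and SLC16A3 were scarcer per kilobase than PFKFB3, ALDOA and SLC16A1 and had the larger log2 fold changes, by 2.00, 1.68 and 0.42. LDHA and SLC2A1 were the abundant forms of their pairs and had the higher fold changes, by 0.93 over LDHB and 1.63 over SLC2A3. HK1 and HK2 differed by 0.02. These differences between genes are descriptions with no test.

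Neighbouring pathways were counted in the same way. Over 8 further lists of sugar metabolism and the HIF pathway, 83 genes were tested, of which 19 were higher and 12 lower, beside 14.7% and 14.8% of all genes tested, with a median log2 fold change of 0.11 against 0.00. The share of lower genes was thus near that of all genes. Isozymes and sugar transporters outside the members had 1 of 12 tested genes higher, SLC2A8 (0.40, SE 0.15), an intracellular transporter, and 1 lower, ADPGK (-0.49, SE 0.06), an ADP-dependent glucokinase, in the authors' deposited table. A mean of 72.0 or more was reached by 4 of 22 such genes, and the liver and gut transporter SLC2A2 was listed at 0. In the pentose phosphate pathway 2 of 7 passed, a share near the 29.5% of all genes tested, and both were higher, namely TKT (0.54, SE 0.04), a transketolase, and RPE (0.38, SE 0.13), an epimerase, in the authors' deposited table. PCK2, the mitochondrial form of the gluconeogenic carboxykinase, was higher, with 0.57 and an SE of 0.15 in the authors' deposited table, the only called gene of 2 tested in gluconeogenesis.

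Pyruvate dehydrogenase kinases differed in direction. Of 13 tested genes of mitochondrial pyruvate use, 3 were higher and 2 lower, beside 14.7% and 14.8% of all genes tested, so the list as a whole stood near the background. In the authors' deposited table PDK3, like PDK1, was higher with 0.90 (SE 0.16) and PDK2 lower with -1.25 (SE 0.23). PDP2 (0.33, SE 0.11), a phosphatase that reactivates the complex, and its subunit PDHA1 (0.26, SE 0.08) were also higher, and PDPR (-0.12, SE 0.05), which regulates the phosphatase, was lower in the authors' deposited table. BSG (0.35, SE 0.04), the chaperone of MCT1 and MCT4, was higher, and EMB (-0.43, SE 0.08), a related chaperone, was lower in the authors' deposited table, out of 5 tested genes of lactate and proton export. Glycogen metabolism had 2 of 10 tested genes called in the authors' deposited table, a share under the 29.5% of all genes, both lower, GYG1 (-0.88, SE 0.06), the primer of glycogen, and UGP2 (-0.64, SE 0.04), which makes its sugar donor.

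Regulators of HIF outside the members were lower where they passed, in 3 of 8 tested genes, beside 14.8% of all genes tested. CREBBP (-0.65, SE 0.07), a coactivator, VHL (-0.52, SE 0.07), the ubiquitin ligase subunit that removes hydroxylated HIF alpha, and CITED2 (-0.36, SE 0.10), a competitor for the coactivator, were lower in the authors' deposited table. Further HIF targets had 11 of 26 tested genes higher and 3 lower, beside 14.7% and 14.8% of all genes tested, with a median of 0.24. Among the higher were ADORA2B (3.38, SE 0.34), an adenosine receptor, and PPFIA4 (2.05, SE 0.24), a liprin, in the authors' deposited table. IGFBP3 (-1.20, SE 0.23), a carrier of insulin-like growth factors, TFRC (-0.75, SE 0.13), the transferrin receptor, and BHLHE40 (-0.63, SE 0.06), a transcriptional repressor, were the 3 lower in the authors' deposited table.

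**Figure D5:**
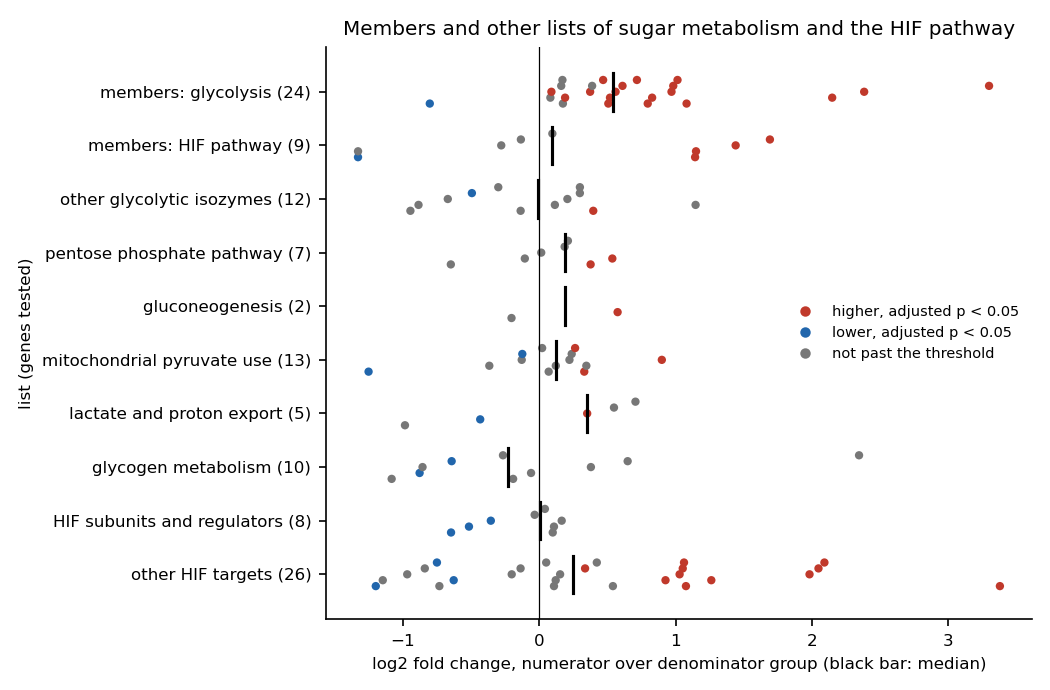
Log2 fold change (x axis, numerator over denominator group) of each tested gene in the members' 2 sets and 8 further lists (y axis, genes tested in parentheses); points are coloured by call and black bars are medians. The glycolysis set has its median at 0.54 with 18 of 24 genes higher and 1 lower, and glycogen metabolism has its median at -0.23 with 2 of 10 genes called, beside 29.5% of all genes tested.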

How the data were processed

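Per the labels' protocols, a SMARTer mRNA-Seq kit was used on total RNA, and STAR, Salmon and hg38 are named without version or role, per the submitters' processing notes. Which program made the table is not given in the sources used here, though its columns bear the names of a DESeq2 result, per the file headers. The deposited signal is the mean of normalized counts across libraries, per the file headers. The deposited fold change has its error, like itself, in log2 units, the deposited statistic is a score equal to their ratio, and the deposited p-value and adjusted p-value were used unchanged, per the file headers. Those adjusted p-values equal Benjamini-Hochberg adjustment over 13957 genes to within 3.66e-07.

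No counts or values per sample were used, so no model was refitted, and the depth of each library is unknown. The median error was 0.14 for genes with a mean of at least 72.0. Levels were divided by merged exon length (GENCODE 29). 95% intervals are normal, from the deposited error. Alternatives changed the threshold, the null, the filter, the error, the centring, the biotype and the length. The code that makes the calls was also run on simulated data. Its noise was drawn from the deposited errors, so it says nothing on whether those errors are wide enough. Members and lists were chosen with earlier results of these data known. Named genes were all members, the markers and, per list, up to 3 called genes with the largest change in each direction, except that a further result is not reported here. SLC2A14, SLC2A2, ENO3 and the LDHA pseudogenes fall outside this rule and were chosen after their values were seen. Tools were Python 3.11.15, numpy 2.4.6, pandas 2.3.3, scipy 1.17.1 and matplotlib 3.10.9.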

Additional observations from a re-analysis of the deposited data

How the results depend on the processing

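Against a 1.5-fold change, 12 members were called (11 higher and 1 lower), beside 653 of all genes (330 higher and 323 lower) and 10 of the further lists (9 higher and 1 lower). With errors widened by 2.03, the robust spread of all statistics, 14 members were called (13 higher and 1 lower), beside 1196 of all genes (600 higher and 596 lower) and 18 of the further lists (12 higher and 6 lower). As deposited these were 24 members, 4120 genes and 31 genes of the lists. With the longest transcript as length, the order of levels held in 8 of 9 steps, the exception being BNIP3 and BNIP3L. An adjusted p of 0.01, no low-mean filter, a mean of at least 72.0 and protein-coding genes alone left 21 to 25 members called. Centring subtracted the median of all genes, which was 0.00, and so could change no call. The 7 alternatives all kept the deposited fold changes, so they could not turn the direction of any member. No paired analysis was possible because the table holds no value per sample, and for the same reason leaving out replicates and fits with edgeR or DESeq2 were not run. The depth of each library is unknown, so what it limits was not tested. PGAM1, ENO1 and ANKRD37, with means under 72.0, had errors of 0.44, 0.35 and 0.38, against a median of 0.14 for genes at or above that mean.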
